A study of Oryza sativa Japonica Group with 20 samples.

Results

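The chloroplast keeps a small genome of its own. It codes for core subunits of both photosystems, the cytochrome b6f complex and the ATP synthase, the large subunit of Rubisco, the NADH dehydrogenase-like complex, ribosomal proteins and an RNA polymerase. The nucleus codes for most other chloroplast proteins, among them the small subunit of Rubisco (rbcS) and the chlorophyll a/b binding proteins of the light-harvesting antenna (CB). Leaf cells hold chloroplasts with active photosynthesis genes, and root cells hold non-green plastids with the same genome. The data described here are the signals of 108 array features of the rice plastid genome in leaves and roots that were losing water.

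The members were all features whose identifier begins with CAA, the protein identifiers of the rice chloroplast genome, which gave 108 of 27,609 genes on the array. Their identifiers run from CAA33908.1 to CAA34015.1 with no number missing. No file gives gene names for them, and 0 of the 108 matched an accession, symbol or synonym in the RefSeq table of the rice genome (assembly ASM3414082v1). That table also lists 108 protein-coding plastid genes, of which 15 are psb genes of photosystem II, 4 are psa genes of photosystem I, 6 are pet genes of cytochrome b6f, 6 are atp genes, 12 are ndh genes, 26 are ribosomal protein genes, 4 are rpo genes and 1 is rbcL, and 27 carry a locus tag only. The equal number gives no pairing, so features are named by identifier and no role is given to any single one.

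Plants were soil-grown seedlings of the non-transgenic japonica cultivar Nakdong. They were lifted from soil, kept in water for a day and then dried in warm air under constant light with the roots wrapped in tissue and foil, and the 0 h groups shared the lifting and the day in water but were collected before drying. Leaves and roots were collected apart at 0 h and after 0.5 h, 2 h, 6 h and 12 h, with 2 biological replicates for each of the 10 groups and 1 array per replicate. The labels do not say whether replicates were separate plants or pools, so the p-values measure only the spread between these samples.

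The plastid features rest on fewer probes than the rest of the array. Of the 108 features, 100 had 1 probe, 7 had 2 and CAA33997.1 had 3, while 27,431 of the other genes had 10. An intensity depends on the probe as well as on the RNA, so levels are compared below between arrays for the same feature and never between features as amounts of RNA. The array carries a control feature of random sequences, which read 115 to 362 over the 20 arrays and serves here as the level of background. It was exceeded by 76 members on all arrays, while 17 were below it on 1 to 4 arrays, 2 on 5 to 15 arrays and 13 on 16 or more arrays. These 13 dim features had intensities from 10.4 to 421 and carry no usable level in either tissue at most times. CAA33970.1 and CAA33982.1 were the dimmest in both tissues at 0 h, at no more than 33.1 and 25.9 on any array. The brightest members at 0 h were CAA34004.1 and CAA33927.1 in leaf and CAA33991.1 and CAA33927.1 in root.

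The widest shifts of these features lay on leaf 0 h replicate 2, root 0.5 h replicate 2 and leaf 0.5 h replicate 1. On the first 2 of these arrays they moved more than genes at large. The root 0.5 h and leaf 0.5 h arrays were shifted for all genes too. On root 0.5 h replicate 2 the median shift was -0.74 for these features and -0.27 for all genes. On leaf 0 h replicate 2 the median intensity of the 108 features was 6372, against 14902 on replicate 1, and 92 of the 108 were lower on replicate 2. The sum of 7 leaf markers (rbcS and CB1 to CB6, all nuclear genes) was 304888 and 285810 on the same arrays, and the median of all genes was 2534 and 2662. On leaf 0.5 h replicate 1 the plastid median was 10323 against 18432 on replicate 2, and on root 0.5 h replicate 2 it was 1891 against 3019 on replicate 1. Both of those 0.5 h arrays also had a raised random feature, at 362 and 340, against 115 to 228 on the other 18. Of the 95 members that were not dim, 42 were lower by more than 1 on the log2 scale on leaf 0 h replicate 2 than on replicate 1, 27 were lower by that much on leaf 0.5 h replicate 1 than on replicate 2, and 19 were in both sets, 45.2% of the first and 70.4% of the second. The low set of root 0.5 h replicate 2 held 42 members, and 25 of these were also in the leaf 0 h set, 59.5% of each. Over all genes 5.68% were lower by more than 1 on leaf 0 h replicate 2. That share was 27.0% for leaf 0.5 h replicate 1 and 20.8% for root 0.5 h replicate 2. The median shift between leaf 0.5 h replicates was 0.38 for the plastid features and 0.45 for all genes, so the shift of that array was not particular to these features. Smaller shifts were seen in root at 0 h and 12 h. From replicate 1 to replicate 2 the plastid median moved by 0.26 and -0.34, against -0.02 and 0.015 for all genes. Of the 95 members, 13 were higher by more than 1 on root 0 h replicate 2, against 4.90% of all genes. On root 12 h replicate 2, 16 were lower by that much, against 4.40%.

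Plastid features were lower in root than in leaf before drying. At 0 h, 37 of the 108 were lower in root than in leaf and none was higher, where a call needed a log2 change past 1 and an adjusted p under 0.05 (limma with Benjamini-Hochberg adjustment, here and below). Over all genes 7.19% were called lower and 11.2% higher in this comparison, so the plastid share called lower, 34.3%, lay well above that of the array. The median log2 difference of the 108 was -1.20, against 0.04 over all genes, and 103 of the 108 were negative. For 74 of them both root arrays were below both leaf arrays, which held for 27.1% of all genes, and for 1 both were above, against 34.7%. The 37 called features differed by between 1.10 and 5.01 on the log2 scale with a median of 2.34, and none of them was below background in either tissue. In bulk tissue, fewer cells of a type and less RNA per cell cannot be told apart.

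CAA34007.1 had the largest called difference between tissues at 0 h. Its intensity was 34701 and 33848 in leaf at 0 h and 1081 and 1052 in root, a log2 difference of -5.01 (SE 0.63, adjusted p = 8.28e-05, limma). CAA33973.1 read 11881 and 4473 in leaf and 354 and 313 in root, a log2 difference of -4.45 (SE 1.05, adjusted p = 0.00814, limma), which missed the threshold without leaf 0 h replicate 1 (adjusted p = 0.0825) and lay at it without root 0 h replicate 2 (adjusted p = 0.05). The groups did not overlap for either feature, although the leaf replicates of CAA33973.1 were far apart. CAA33977.1 had the lowest adjusted p of all members, with 20134 and 15844 in leaf, 593 and 1309 in root, and a log2 difference of -4.34 (SE 0.42, adjusted p = 9.06e-06, limma). CAA33996.1 read 24187 and 17239 in leaf and 673 and 2139 in root, a log2 difference of -4.09 (SE 0.63, adjusted p = 0.000366, limma).

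The gap was also seen on the 2 h arrays, where 26 of the 95 features that were not dim were lower in root by more than 3 on the log2 scale and 60 by 1 to 3, with CAA34007.1 at -3.90. Of all 27,609 genes, 856 were lower in root by more than 3 and 4233 by 1 to 3. No test was made at 2 h. Not every plastid feature was far lower in root. CAA33991.1 read 41962 and 43840 in leaf and 28488 and 27685 in root, a log2 difference of -0.61 (SE 0.25, adjusted p = 0.116, limma), and CAA33927.1 read 42361 and 44502 in leaf and 25792 and 29049 in root, a difference of -0.67 (SE 0.24, adjusted p = 0.0672, limma). Root arrays lay below leaf arrays for both features, and neither passed the test. CAA33999.1 was the single member with both root arrays above both leaf arrays, at 17986 and 21203 in root and 14245 and 5697 in leaf, a difference of 1.12 (SE 0.40, adjusted p = 0.0698, limma). Its lower leaf value came from the leaf replicate on which most members were low.

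**Figure D1:**
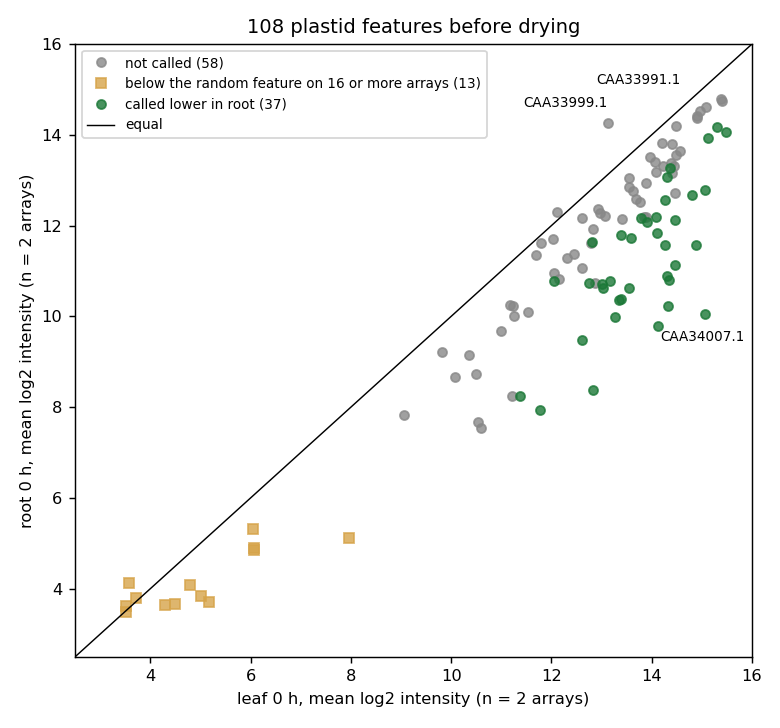
Mean log2 intensity of each of the 108 plastid features in leaf at 0 h (x axis) and root at 0 h (y axis), 2 arrays each, with the line of equal values. Nearly all features lie below the line, the 37 called lower in root (green) spread from just below it to CAA34007.1, and the 13 dim features (squares) sit at the lower left.

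The features lower in root were spread over the identifier series but not evenly. When the series was divided into 3 runs of 36, 5 were called lower in root among numbers 33908 to 33943, 12 among 33944 to 33979 and 20 among 33980 to 34015, with median log2 differences of -0.97, -1.25 and -1.54. Of the 13 dim features, 10 fell in the middle run. The division was made after the values were seen and has no test.

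The count of features called lower in root depended on single arrays. It was 22 without leaf 0 h replicate 1, with 1 feature then called higher, and 22 without root 0 h replicate 1, and lay between 22 and 44 in total over all arrays left out in turn.

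In leaf, plastid features showed no called decrease at any time of drying. At 0.5 h, 0 of 108 were called, against 0.145% of all genes higher and 0.261% lower. At 2 h, 2 were called higher and 0 lower, against 8.32% and 3.62% of all genes. At 6 h, 6 were called higher and 0 lower, against 5.72% and 8.72%. At 12 h, 0 were called, against 5.53% and 10.2%. With no adjustment for multiple testing, at p under 0.05, the counts higher and lower by limma were 5 and 0, 21 and 1, 27 and 0, and 7 and 0, in order of time. The share of all genes was not counted at that threshold, so these counts do not set the plastid features apart from the array. Neither the 2 h count nor the 6 h count of called features exceeded the share of all genes called higher.

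The median log2 change of the 108 in leaf was 0.31, 0.25, 0.49 and 0.34 at the 4 times in order, where all genes had -0.17, 0.07, 0.06 and -0.05. At 6 h both arrays were above both 0 h arrays for 51 features, 47.2% against 33.2% of all genes, and below for 2 features, 1.85% against 32.4%. At 12 h both arrays were above for 25 features, 23.1% against 23.7%, and below for 7, 6.48% against 33.4%. These counts of arrays below 0 h are limited by leaf 0 h replicate 2, on which 92 of the 108 features were lower than on replicate 1. With single arrays left out the leaf median lay between -0.12 and 0.72 at 0.5 h, then between -0.0047 and 0.65 at 2 h. The bounds were 0.15 and 0.86 for 6 h, and -0.09 and 0.68 for 12 h.

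The nuclear leaf markers had other values on the same arrays. The sum of rbcS and CB1 to CB6 was 285810 to 304888 at 0 h, 315568 to 315832 at 0.5 h, 214342 to 250849 at 2 h, 153970 to 173290 at 6 h and 114316 to 115732 at 12 h. At 12 h CB1, CB3 and CB4 were called lower, by -1.86, -1.71 and -1.90 on the log2 scale (adjusted p = 0.0226, 0.0205 and 0.0047, limma), and rbcS, CB2, CB5 and CB6 were not called, at -1.04, -0.78, -1.29 and -0.96. All 7 markers were thus negative at 12 h, while 75 of the 108 plastid features were positive, against 46.8% of all genes. The plastid count is limited by leaf 0 h replicate 2, on which 92 of the 108 features were low while the marker sum was not. With single arrays left out the plastid median at 12 h reached -0.09. The difference between the markers and the plastid features was not tested.

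**Figure D2:**
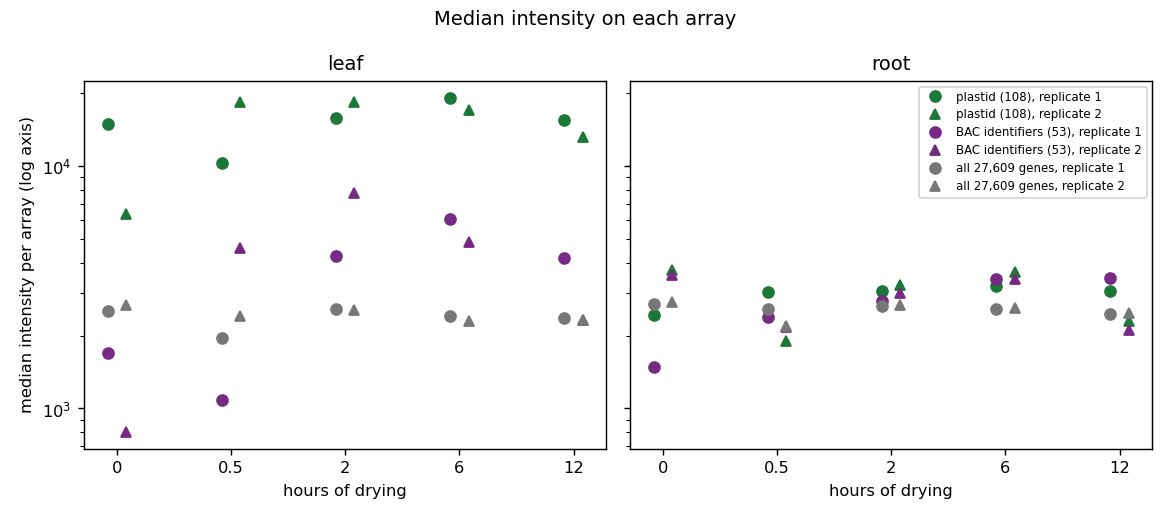
Median intensity per array (log axis) against hours of drying in leaf (left) and root (right), for the 108 plastid features, the 53 features with BAC identifiers and all 27,609 genes, with circles for replicate 1 and triangles for replicate 2. Plastid medians lie at 6372 to 19182 in leaf and 1891 to 3730 in root, and leaf 0 h replicate 2 and leaf 0.5 h replicate 1 are low for both organelle sets.

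CAA33998.1 had the largest called increase in leaf. With the replicates split by a stroke and the 5 times in order, it read 7288/1481, 5084/13617, 12334/20079, 18257/12863 and 9230/10162. All arrays from 2 h on were above both 0 h arrays. The log2 change was 2.26 at 2 h and 2.22 at 6 h (SE 0.63, adjusted p = 0.0339 and 0.0306, limma), and 1.56 at 12 h (adjusted p = 0.111). CAA33921.1 read 5820/3077, 10249/14331, 7841/14262, 12699/12722 and 10874/7679 in order of time. Every later leaf array of CAA33921.1 was above both 0 h arrays, with called changes of 1.32 at 2 h and 1.59 at 6 h (SE 0.40, adjusted p = 0.0468 and 0.0192, limma).

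At 6 h 4 more features were called. CAA33947.1 went from 10320 and 2496 at 0 h to 20278 and 18304 at 6 h, a log2 change of 1.92 (SE 0.61, adjusted p = 0.0477, limma). CAA33940.1 went from 6435 and 2823 to 13330 and 14278, a change of 1.69 (SE 0.37, adjusted p = 0.00953, limma). CAA34000.1 went from 11921 and 5097 to 19313 and 16577, a change of 1.20 (SE 0.37, adjusted p = 0.0435, limma). The last of them, CAA33914.1, was below the random feature on all 20 arrays, so its call has no fold.

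The leaf calls depended on single arrays. Without leaf 0 h replicate 2, 0 plastid features were called at 2 h and 0 at 6 h, and the log2 change of CAA33998.1 was 1.11 and 1.07 (adjusted p = 0.306 and 0.307, limma). That of CAA33921.1 was then 0.86 at 2 h, and that of CAA33947.1 was 0.90 at 6 h. Without leaf 0 h replicate 1 more features were called higher at 2, 6 and 12 h. In each of the 5 called features above background, replicate 2 was the lower of the 0 h arrays. The call of CAA33998.1 was also lost at 2 h without leaf 2 h replicate 2 and at 6 h without either leaf 6 h array. That of CAA33921.1 at 2 h was lost too without leaf 2 h replicate 2 or any 1 array of leaf 6 h, leaf 12 h, root 0 h, root 2 h or root 6 h. That of CAA33947.1 at 6 h was lost without any 1 array of leaf 2 h, 6 h or 12 h or of root 0 h, 2 h, 6 h or 12 h. The part of leaf 0 h replicate 2 in these calls cannot be told apart from drying with 2 arrays a group.

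Wide swings in leaf were seen in features that no test called. CAA33939.1 read 3034/720, 418/13058, 12009/16418, 16840/13552 and 8202/4432 in order of time. CAA33922.1 was close to it, at 3262/728, 463/12241, 10842/18548, 16246/11753 and 8414/5050 in the same order. CAA33916.1 read 3736/1523, 490/12965, 14802/17536, 20288/13347 and 12964/5552. The log2 changes at 6 h were 3.35 (SE 1.29), 3.16 (SE 1.25) and 2.79 (SE 1.15), with adjusted p of 0.0924, 0.0997 and 0.112 (limma). All arrays at 2, 6 and 12 h were above both 0 h arrays for these features, and the replicates at 0.5 h lay further apart than the 0 h and 6 h means. CAA33983.1 had the largest log2 change of any member at 6 h, 4.01, from 1692 and 170 at 0 h to 9200 and 8134. It was below the random feature on leaf 0 h replicate 2 and leaf 0.5 h replicate 1, so the size of this change is uncertain.

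**Figure D3:**
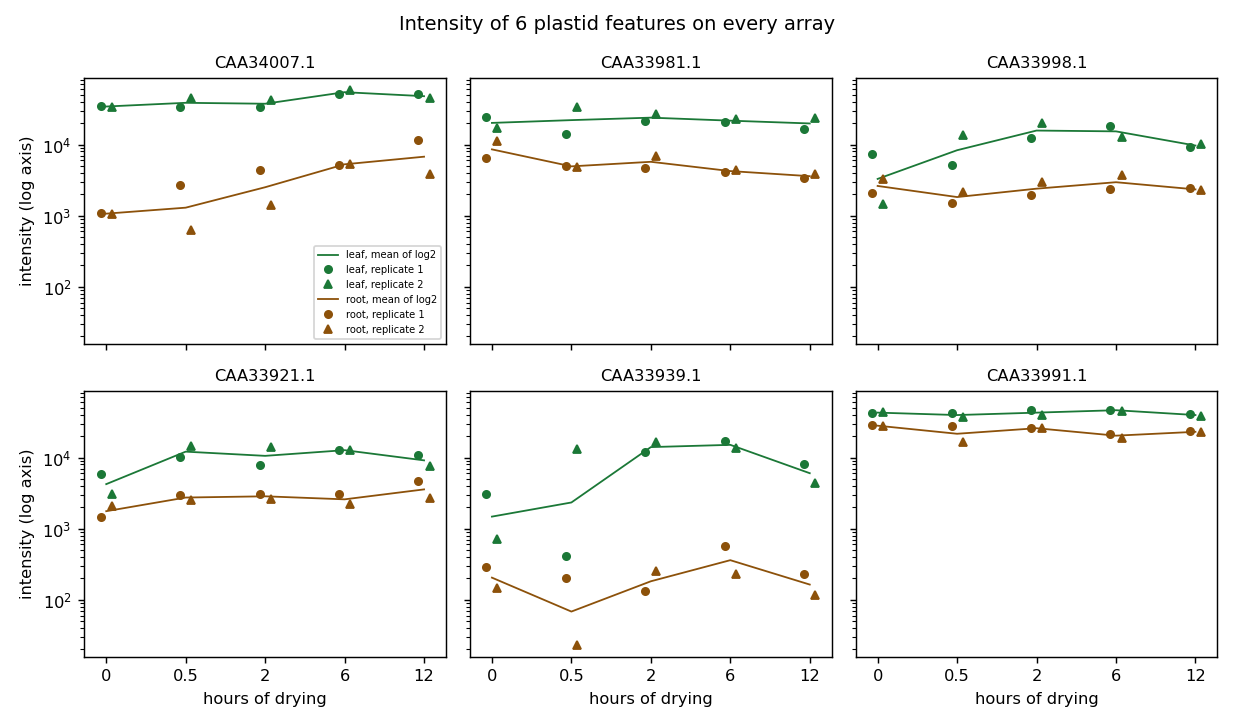
Intensity (log axis) of 6 plastid features on every array against hours of drying, leaf in green and root in brown, circles for replicate 1, triangles for replicate 2 and lines through the mean of the log2 values. CAA34007.1 climbs in root from 1052 and 1081 to between 3880 and 11737, CAA33998.1, CAA33921.1 and CAA33939.1 are low in leaf at 0 h, and CAA33991.1 stays between 16661 and 47436 in both tissues.

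In root, almost no plastid feature was called during drying. None was called at 0.5 h, against 0.29% of all genes higher and 1.4% lower, and none at 2 h, against 1.67% and 1.79%. At 6 h 1 was called higher and 0 lower, against 2.19% and 6.12% of all genes, and at 12 h 1 was called higher and 1 lower, against 3.31% and 10.9%. Plastid features that were not dim varied more between replicates than genes outside the organelle sets. The median standard deviation within groups was 0.508 against 0.352 in root, and 0.454 against 0.432 in leaf on the log2 scale. How far this spread lowered the number of calls was not tested. At unadjusted p under 0.05 the limma counts higher and lower were 0 and 4, 0 and 1, 4 and 2, and 4 and 10, in order of time, with no share of all genes counted beside them. The median log2 change of the 108 was -0.41, -0.06, 0.04 and -0.30 at the 4 times, against -0.30, -0.02, 0.01 and -0.02 over all genes. With single arrays left out these medians lay between -0.80 and -0.04 at 0.5 h, and between -0.22 and 0.13 at 2 h. The bounds were -0.18 and 0.26 for 6 h, and -0.50 and -0.14 for 12 h. At 12 h both arrays were below both 0 h arrays for 45 features, 41.7% against 35.5% of all genes, and above for 13, 12.0% against 26.2%. The replicates of root 0 h and root 12 h differed more for these features than for all genes, which limits these shares. At 0.5 h more features were called lower without replicate 1 of that group, which leaves the array with the raised random feature.

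CAA34007.1 was the one plastid feature called higher in root. Its root intensities were 1081/1052, 2656/631, 4418/1426, 5183/5365 and 11737/3880 in order of time. From 2 h on, every root array was above both 0 h arrays, and the highest root value was still below the lowest leaf value, 33461. The log2 change was 2.31 at 6 h and 2.66 at 12 h (SE 0.63, adjusted p = 0.0387 and 0.0123, limma). In leaf its log2 change at 12 h was 0.48 (adjusted p = 0.712), and the root change minus the leaf change was 2.18 (SE 0.90, adjusted p = 0.199, limma), so a difference between tissues was not called. In a fit on the 10 root arrays alone the adjusted p was 0.114 at 6 h and 0.0549 at 12 h (limma), which missed the threshold at both times. The 6 h call was also lost without any 1 array of leaf 0 h, leaf 6 h, leaf 12 h, root 0 h or root 6 h, and the 12 h call without either root 0 h array (adjusted p = 0.0752 and 0.0592, limma) or without root 12 h replicate 1 (log2 change 1.86, adjusted p = 0.134).

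CAA33981.1 was the one called lower in root. It read 6486/11280, 5051/4820, 4716/6935, 4115/4360 and 3379/3816 in order of time. The groups did not overlap at 0.5, 6 and 12 h, and by 12 h it had a log2 change of -1.25 (SE 0.39, adjusted p = 0.0484, limma). This call was lost without any 1 array other than those of 0.5 h, with a log2 change of -0.85 (adjusted p = 0.313, limma) without root 0 h replicate 2. With root 0 h replicate 1 left out no plastid feature was called at 12 h, and in the absence of root 12 h replicate 1 the calls were 1 higher and 4 lower, neither CAA34007.1 nor CAA33981.1 among them. CAA33924.1 passed the p threshold at 12 h with a smaller change, -0.85 (SE 0.27, adjusted p = 0.0471, limma), and read 13795 and 14670 at 0 h and 9538 and 6503 at 12 h.

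The nuclear leaf markers were higher in dried roots. rbcS read 668 and 465 in root at 0 h and 3249 and 12891 at 12 h, which is 3.54 on the log2 scale (adjusted p = 0.00953, limma), and all 6 CB genes were called higher at 12 h. The sum of the 7 markers was 5007 to 5940 in root at 0 h, 12074 to 21370 at 0.5 h, 18282 to 28063 at 2 h, 14208 to 27053 at 6 h and 16197 to 42382 at 12 h. CB6 was below the random feature on both root 0 h arrays, and the other 6 markers were above it. Among plastid features that were higher in leaf by more than 3 on the log2 scale at 2 h, on arrays that the 12 h comparison does not use, 9 of 26 had a positive root change at 12 h, and the median was -0.36 with a range of -1.43 to 2.66. Dim features were left out of these 26. Among all 856 genes past the same difference 58.3% were positive, with a median of 0.11. No dim genes were left out of the 856, which include the plastid features. The part of the leaf markers' rise in the rise of CAA34007.1 was not tested.

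**Figure D4:**
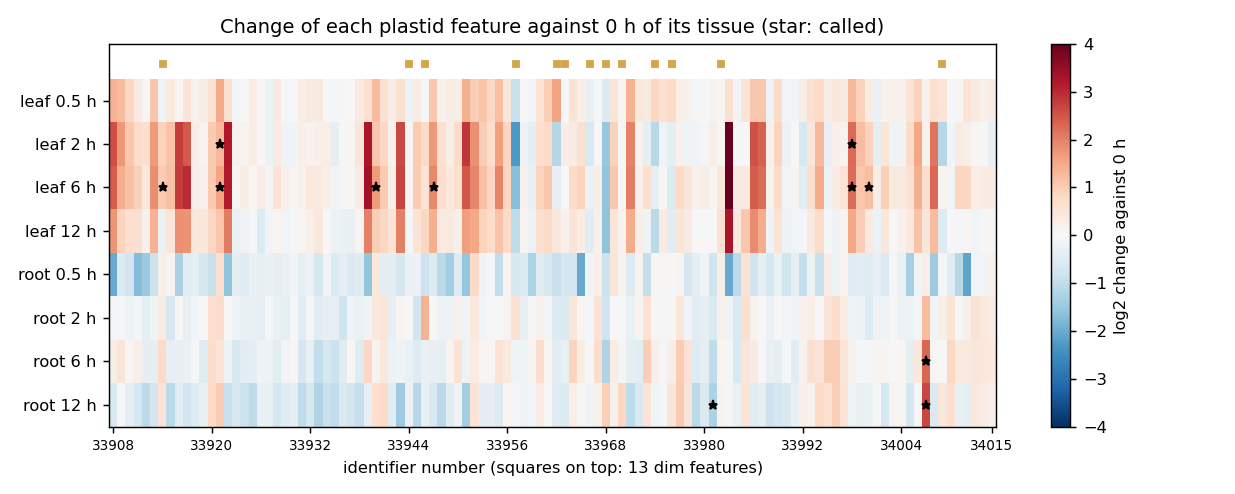
Log2 change against 0 h of the same tissue (colour, red higher and blue lower, cut at 4) for the 108 plastid features in order of identifier number (x axis) at 4 times in leaf and 4 in root (rows), with stars for called changes and squares above the 13 dim features. Leaf rows hold most of the increases and root rows at 0.5 and 12 h most of the decreases, and CAA34007.1 stands out in root.

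The change in root was set against the change in leaf for every feature at each time, and 0 of 108 were called. Of all genes 0.00362% were called higher and 0% lower at 0.5 h. These shares were 0.587% and 1.69% at 2 h, then 1.09% and 1.85% at 6 h. By 12 h they were 1.68% and 2.84%. At unadjusted p under 0.05 limma gave 5, 7, 7 and 6 plastid features, and the share of all genes was not counted. The median difference was -0.75, -0.45, -0.58 and -0.62 at the 4 times, against -0.02, -0.10, -0.02 and 0.05 over all genes. All 4 use the same 0 h arrays, so they are not separate results. For these features leaf 0 h replicate 2 was low and root 0 h replicate 2 high, by a median of -0.88 and 0.26 against the other replicate. With single arrays left out the median difference lay between -1.11 and -0.32 at 0.5 h, and between -0.84 and -0.10 at 2 h. The bounds were -0.96 and -0.27 for 6 h, and -0.92 and -0.34 for 12 h.

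The 53 features with BAC identifiers, the numbering of rice mitochondrial proteins, also rest on few probes, 44 of them on 1. Their median log2 change in leaf was 0.73, 2.08, 1.93 and 1.20 at the 4 times in order, above that of the plastid features at each time. At 2 h 20 of the 53 were called higher, 16 at 6 h and 1 at 12 h. These were 37.7%, 30.2% and 1.89%, against 8.32%, 5.72% and 5.53% of all genes. The BAC features were also low on leaf 0 h replicate 2, with a median intensity of 799 against 1692 on replicate 1. Their leaf replicates differed at 0.5 h and 2 h too, by a median of 1.97 and 1.01 on the log2 scale. Within leaf groups their median standard deviation was 0.892, against 0.432 for genes outside the organelle sets. In root at 0 h their median difference from leaf was 0.99, where the plastid features had -1.20. No test between the sets was made.

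Several plastid features had almost the same values on all 20 arrays. For each pair of features the root mean square of the log2 difference over the arrays was taken as a measure of distance, and 33 pairs were each other's nearest. The distance was 0.169 for CAA33924.1 and CAA33928.1, 0.183 for CAA33927.1 and CAA33991.1 and 0.193 for CAA33915.1 and CAA33945.1, while the median over all pairs was 1.99. CAA33915.1 read 20003 and 10870 in leaf at 0 h and 2998 and 7163 in root, and CAA33945.1 read 19713 and 11725, and 3321 and 6660. Of the nearest pairs 12, with 24 members, had identifier numbers that mirror each other, adding to between 67860 and 67862. The lower numbers of these pairs run from 33910 to 33926 and the higher ones from 33936 to 33950, in reverse. Of the 5778 pairs that the 108 features can form, 68 have such a sum. The range of sums was chosen from these same nearest pairs as the one that held the most of them, so the counts make no test.

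The mirrored pairs lay at distances of 0.193 to 0.482 with a median of 0.284, and the other 21 nearest pairs had a median of 0.401. Pairs with dim features enter this last median and the median over all pairs, and none of the mirrored pairs holds a dim feature. CAA33921.1 and CAA33940.1, both called in leaf at 6 h, are such a pair, and so are CAA33922.1 and CAA33939.1. CAA33947.1, called at 6 h, is paired with CAA33913.1, which read 12110 and 2599 at 0 h and 18906 and 21631 at 6 h and was not called (log2 change 1.85, SE 0.76, adjusted p = 0.11, limma). Plastid genomes of grasses carry an inverted repeat, in which the same genes lie in a pair of copies in opposite order, and 6 plastid symbols are listed more than once in the RefSeq table. The positions and probe sequences of the features were not read here, and whether members of a pair share probes was not examined. The counts above take each member as a separate feature, so a pair can be counted as 2, as CAA33921.1 and CAA33940.1 are in leaf at 6 h.

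**Figure D5:**
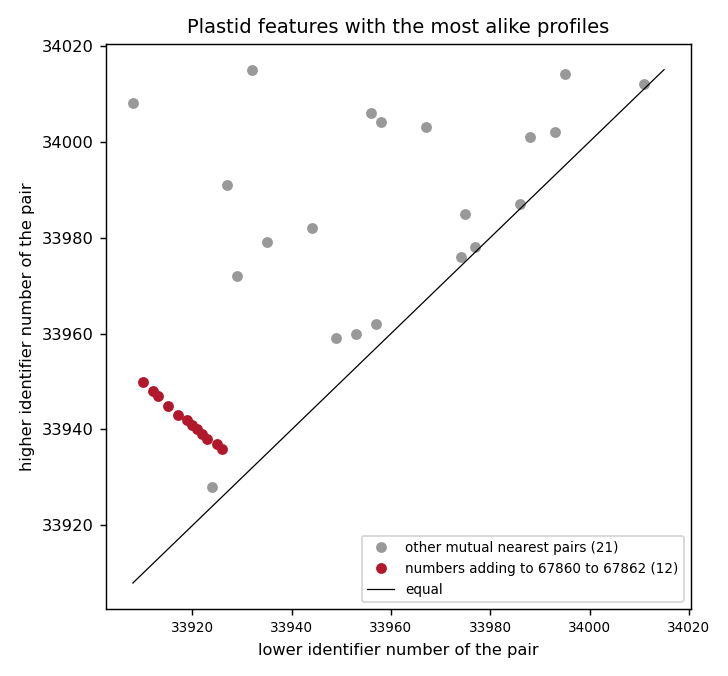
Identifier numbers of the 33 pairs of plastid features that are each other's nearest in values over 20 arrays, the lower number on the x axis and the higher on the y axis, with the line of equal numbers. The 12 pairs in red, whose numbers add to between 67860 and 67862, form a descending line, and the other 21 pairs (grey) are scattered.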

How the data were processed

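RNA was hybridised to single-colour NimbleGen 3′-tiling arrays, and the authors combined probes into 1 value per gene with RMA. Values were deposited as linear-scale intensities. The set of arrays normalized together and the background step are not given in the sources used here. The number of probes per feature was taken from the other deposited table, of a root 0 h array.

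No normalization, floor or filter was added before log2 transformation. The 6 control features were left out. A model with 10 groups was fitted to the 20 arrays over 27,609 genes with limma 3.58.1 (lmFit and eBayes, R 4.3.3), and had 10 residual and 3.43 prior degrees of freedom. It was run on simulated data with independent noise for each gene, which do not cover an array that shifts many features together. P-values were adjusted by Benjamini-Hochberg within each of 13 comparisons: each time against 0 h of its tissue, the tissues at 0 h, and their changes against each other. Calls needed a log2 change past 1 or -1 with adjusted p under 0.05. No fold is given where both groups were below the random feature. The number of arrays limits the precision.

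Members and lists were chosen with earlier results of these data known. Features were named by rule as follows: the called features with the largest changes in each comparison (at most 2 in each direction), the 2 brightest and 2 dimmest at 0 h in each tissue, features with an uncommon probe number, the 3 closest pairs, and rbcS and CB1 to CB6. CAA33913.1, CAA33914.1, CAA33916.1, CAA33922.1, CAA33924.1, CAA33939.1, CAA33940.1, CAA33977.1, CAA33983.1, CAA33996.1, CAA33999.1 and CAA34000.1 were chosen for the comparisons after their values were seen. A deposited table of the authors' calls was not used. Alternatives were quantile normalization over all arrays or within a tissue, centring arrays on their medians, leaving out dim genes, a floor at the random feature, another variance prior, the replicate number as a block, a fit per tissue and leaving out arrays.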

Additional observations from a re-analysis of the deposited data

How the results depend on the processing

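Counts of called plastid features were small and moved with the processing. The share of all genes called in each alternative fit, here and with arrays left out above, is not given. These counts therefore show only how the calls depend on the arrays and the processing. In leaf at 2 h the 2 called became 5 with arrays centred on their medians, 1 without the dimmest 25% of genes, 4 with values below the random feature raised to it, 7 with a trended and robust variance prior, 4 with the replicate number as a block and 0 in a fit of the 10 leaf arrays. In leaf at 6 h the 6 called became 11 with centring, 11 with the floor and 0 in the leaf fit. In leaf at 12 h the 0 called became 2 with centring. In root the 1 called at 6 h became 0 in a fit of the root arrays, and the 2 called at 12 h became 1 with centring and 1, the lower one, in that fit. An alternative chosen after seeing the data left out both 0.5 h arrays with a raised random feature: it gave 16, 23 and 4 called higher in leaf at 2, 6 and 12 h, 4 in root at 12 h (1 higher, 3 lower), and 2, 4 and 2 called lower in root against leaf changes at 2, 6 and 12 h. The cause of these shifts was not tested.

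Leaving out each array in turn gave 0 to 1 called in leaf at 0.5 h, 0 to 16 at 2 h, 0 to 22 at 6 h and 0 to 12 at 12 h. In root it gave 0 to 18 at 0.5 h, 0 to 0 at 2 h, 0 to 1 at 6 h and 0 to 5 at 12 h. Root against leaf at 0 h gave 22 to 44, and the differences of changes gave 0 to 2, 0 to 1, 0 to 1 and 0 to 2. A lone array was assumed to vary like the other groups. Beyond the arrays named in the report, leaf 2 h replicate 2 and leaf 6 h replicate 2 took the leaf counts at their own times to 0, and either leaf 0.5 h array took them to 11 at 2 h and 15 at 6 h. The replicate numbers are not tied to a batch or day in the labels. Deviations of same-numbered arrays correlated at -0.164 to 0.72 over 45 pairs of groups, above 0.1 in 38, and with the replicate block only the count in leaf at 2 h moved by over 1.5 times.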
